A study of Mus musculus with 5 samples.

Results

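The cells described here were CD4 T cells from injured mouse kidneys that carried RNA of Eomes or Gzmk. A barcode was kept with at least 500 detected genes and under 10% of its unique molecular identifiers (UMIs, counted transcripts) from mitochondrial genes. A kept cell belonged to the population when it had at least 1 UMI of Cd4, at least 1 of Cd3e, at least 1 of Eomes or Gzmk, and 0 of Foxp3, Cd8a, Ncr1 and Klrb1c. This gave 3307 cells, or 8.61% of the 38417 kept cells and 14.9% of the 22212 cells that met the same gate before Eomes and Gzmk were considered, called conventional CD4 T cells below. The members were chosen by the UMIs of these 8 genes, so their levels are given only as a description. Of the 3307 cells, 2888 (87.3%) had Gzmk alone, 172 (5.20%) had Eomes alone and 247 had both.

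Eomes encodes Eomesodermin, a T-box transcription factor related to T-bet that drives cytotoxic and memory genes in CD8 T cells and natural killer (NK) cells. Gzmk encodes granzyme K, a serine protease stored in cytotoxic granules. CD4 T cells are mostly known as helpers, and a minority takes on killer-cell features, including granzymes, the granule protein Nkg7 and the chemokine Ccl5, in chronically stimulated or inflamed tissue.

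The study sequenced CD4 T cells sorted from the kidneys of 10-week-old mice after ischemia-reperfusion injury, in which blood flow is stopped and restored, by droplet 3′ single-cell RNA sequencing. The 3 KO libraries came from mice with the genotype Il1rl1fl/fl Foxp3YFP-Cre, and the 2 WT libraries from Il1rl1fl/fl mice, so both groups carried the floxed Il1rl1 alleles. Il1rl1 encodes ST2, which binds the alarm cytokine IL-33, and the Cre recombinase is expressed under Foxp3, the factor that defines regulatory T cells. The Foxp3YFP-Cre allele was present only in KO mice, so its presence and the deletion of Il1rl1 cannot be told apart. Whether the libraries stem from separate animals is not given, so p-values measure the spread between libraries, which may be technical. No uninjured kidney was among the libraries used here.

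The population numbered 433, 863 and 379 cells in KO libraries 1, 2 and 3, and 1239 and 393 cells in WT libraries 1 and 2. Their median depth was 9230, 5920 and 7120 UMIs per cell in the KO libraries and 16528 and 6051 in the WT libraries. The other conventional CD4 T cells had medians of 8349, 5088.5 and 5026 UMIs in the KO libraries and 14108.5 and 5048 in the WT libraries, lower than the Eomes or Gzmk cells in each of the 5 libraries. Depth therefore enters the gate, and results are given beside those from cells thinned to 2000 UMIs before gating. Just outside the quality limits stood 1 further cell at 400 to 499 genes and 1 at 10% to 11% mitochondrial UMIs, and no member stood just inside them. Cells that missed the gate by 1 UMI of Foxp3 numbered 9 to 31 per library, by 1 UMI of Cd8a 2 to 22, by 1 UMI of Klrb1c 1 to 9, and by 1 UMI of Ncr1 0. Library pairs shared 2 to 39 barcodes, 2 of them barcodes of members.

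The floxed gene was examined first. Levels are given as CPM, the UMIs of a gene per 1000000 UMIs summed over the class in a library. In the Eomes or Gzmk cells Il1rl1 (chromosome 1) stood at 41.0, 31.1 and 22.2 CPM in KO libraries 1, 2 and 3, against 3.78 and 5.05 in WT libraries 1 and 2. Every KO library lay above both WT libraries, with a log2 fold change of 2.90 (SE 0.31), which did not pass the threshold in edgeR (adjusted p = 0.239) and passed in DESeq2 (adjusted p = 5.13e-12) and, by edgeR, in cells free of other lineages' markers, defined below. Over the settings tried its adjusted p ranged between 2.98e-29 and 1. Cre is expressed in Foxp3-positive cells, and the gate removed those with a detected Foxp3 UMI. Cells that express Foxp3 without a detected UMI may remain in the classes. The sources used here also do not give the deleted exons, so this 3′ count does not check the genotype labels.

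The share of conventional CD4 T cells that carried Eomes or Gzmk was compared between the genotypes after thinning. It was 6.41% (64 of 999 cells), 6.35% (182 of 2864) and 6.26% (74 of 1182) in KO libraries 1, 2 and 3, against 5.63% (132 of 2344) and 4.61% (93 of 2017) in WT libraries 1 and 2. The exact 95% binomial intervals, which cover counting error only, were 4.97% to 8.11%, 5.49% to 7.31% and 4.95% to 7.80% in the KO libraries, and 4.73% to 6.64% and 3.74% to 5.62% in the WT libraries. The KO values were all above the WT values, and the intervals of all KO libraries overlapped those of both WT libraries. The mean share was 6.34% ± 0.0739 in KO libraries (SD, n = 3) and 5.12% ± 0.722 in WT libraries (SD, n = 2), a difference of 1.22 percentage points with a two-sided exact permutation p of 0.2, the smallest p that 3 libraries against 2 can give. Without thinning the shares were 16.0%, 14.8% and 14.0% in KO libraries and 19.1% and 8.77% in WT libraries, so the groups overlapped (exact permutation p = 0.8). A setting added after the data were seen gated cells at full depth before thinning. Its mean shares were 5.65% ± 0.527 in KO libraries and 4.42% ± 0.564 in WT libraries (SD, exact permutation p = 0.2). Thinned to 3000 UMIs, KO library 1 at 6.84% lay below WT library 1 at 7.37% (exact permutation p = 0.4). In cells free of other lineages' markers, defined below, they stood at 5.876% and 5.888% (exact permutation p = 0.4). With at least 2 UMIs of Eomes and Gzmk required, the thinned difference was -0.08 percentage points (exact permutation p = 0.6). A genotype difference in abundance was therefore not shown.

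**Figure D1:**
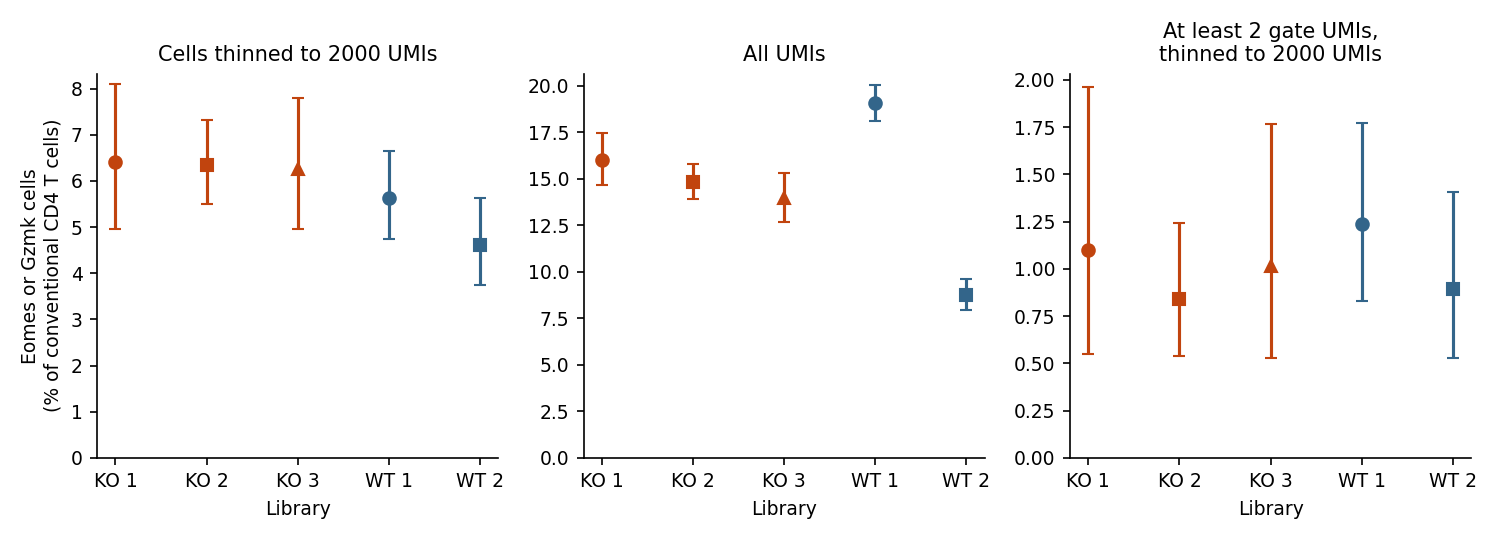
Share of conventional CD4 T cells with Eomes or Gzmk (y axis, percent) in KO libraries 1 to 3 and WT libraries 1 and 2 (x axis), with exact 95% binomial intervals, for cells thinned to 2000 UMIs, for all UMIs, and for at least 2 gate UMIs after thinning. The thinned KO shares lie between 6.26% and 6.41%, above the WT shares of 5.63% and 4.61%, and the groups overlap in the other panels.

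B cells and CD8 T cells of the same libraries give the range of detection. In thinned data transcripts of Eomes or Gzmk were found in 545 of 9406 conventional CD4 T cells (5.79%), in 34 of 172 CD8 T cells (19.8%), which normally use both genes, and in 2 of 195 B cells (1.03%, exact 95% upper bound 3.66%), which should lack them. Both of these B cells were in KO library 3, where they were 2 of 13 (15.4%, exact 95% interval 1.92% to 45.4%) beside 6.26% of conventional CD4 T cells. These gates followed thinning, which can remove the Cd3e and Cd4 UMIs that keep a cell out of the B cells. Gated at full depth and then thinned, 0 of 88 B cells had such transcripts (exact 95% upper bound 4.11%). In KO library 3 this was 0 of 5. The same setting gave 43 of 213 CD8 T cells (20.2%) and 1120 of 21671 conventional CD4 T cells (5.17%). Without thinning transcripts of Eomes or Gzmk were found in 118 of 227 CD8 T cells (52.0%) and in 1 of 106 B cells (0.943%). B cells were shallower, with library medians of 2414 to 8863 UMIs. Eomes stood at 28.9, 25.8 and 14.4 CPM in the population in KO libraries and at 20.8 and 10.7 in WT libraries. Gzmk stood at 137, 169 and 154 CPM in KO libraries and at 120 and 181 in WT libraries. In thinned conventional CD4 T cells Eomes was found in 1.85%, 3.85% and 2.90% of the cells with Gzmk in KO libraries and in 9.48% and 2.27% in WT libraries. In the cells without Gzmk it was found in 1.06%, 0.960% and 0.449% in KO libraries and in 0.718% and 0.259% in WT libraries. The share was thus higher beside Gzmk in 5 of 5 libraries, on 1 to 11 cells with both genes per library.

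The Eomes or Gzmk cells were next set against the other 18905 conventional CD4 T cells of the same libraries, to see what they share beyond the gate. The UMIs of each class were added up within each library and tested with edgeR's quasi-likelihood test, with library as a term and Benjamini-Hochberg adjusted p under 0.05 over all tested genes as the threshold. Of the gene lists given below, 10 of 18 cytotoxic granule genes rose and 1 fell, and 15 of 18 naive and memory, 6 of 8 Th17 and 6 of 9 Th2 genes fell. Of 12799 genes, 1276 (9.97%) passed, 705 higher (5.51%) and 571 lower (4.46%). After thinning 113 passed. Both remaining markers of the population, Ccl5 and Nkg7, were among the higher genes. They were named as markers with earlier results of these data known. Their levels and p-values, here and below, are a description and no independent support.

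Ccl5, a chemokine that draws T cells and monocytes, stood at 970, 881 and 958 CPM in the Eomes or Gzmk cells of KO libraries and at 1174 and 967 in those of WT libraries, against 442, 527 and 637 in the other conventional CD4 T cells of KO libraries and 517 and 539 in those of WT libraries. All 5 values of the population exceeded all 5 of the other cells, with a log2 fold change of 0.87 (SE 0.08, edgeR adjusted p = 1.45e-04). Nkg7, a granule membrane protein of cytotoxic cells, stood at 447, 576 and 487 CPM in the population in KO libraries and 434 and 497 in WT libraries, against 272, 456 and 364 in the other cells of KO libraries and 234 and 308 of WT libraries. It was higher in 5 of 5 libraries with some overlap between libraries, at a log2 fold change of 0.58 (SE 0.07, edgeR adjusted p = 8.85e-04). Gzmb, the granzyme that cleaves caspases in target cells, stood at 55.5, 21.5 and 114 CPM in KO libraries and 23.7 and 92.2 in WT libraries in the population, against 18.1, 13.4 and 38.9 in KO libraries and 9.50 and 25.7 in WT libraries in the other cells. It varied widely among libraries in the population and was higher than in the other cells of its own library each time, with a log2 fold change of 1.40 (SE 0.12, edgeR adjusted p = 1.31e-04). These 3 genes passed under every alternative that was run.

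Of the 18 tested genes of a cytotoxic granule list, 10 rose and 1, Gzmc, fell, with a median log2 fold change of 0.29 beside -0.00 over all tested genes. After thinning 3 of 16 rose, and without WT library 2, 5 of 18. The granule protease Ctsw, the death ligand Fasl and Cst7, an inhibitor of granule cathepsins, rose by 0.37, 0.44 and 0.30 on the log2 scale (edgeR adjusted p = 0.00932, 0.00487 and 0.0407). Gzma, another granzyme, rose by 0.93 on the log2 scale (SE 0.22, edgeR adjusted p = 0.0219), although at full depth KO libraries 1 and 3 carried most of it, and its log2 fold change was -0.13 after thinning. Without KO library 3 or WT library 2 Gzma did not pass, nor did Ctsw without WT library 2, and Cst7 passed only when KO library 3 was the one left out. Perforin (Prf1), the pore protein that lets granzymes into target cells, stood at 12.1, 10.5 and 4.43 CPM in the population in KO libraries and 6.08 and 10.7 in WT libraries, against 6.40, 7.69 and 6.49 in KO libraries and 5.08 and 10.3 in WT libraries in the other cells. The classes overlapped and Prf1 did not pass (log2 fold change 0.28, SE 0.16, edgeR adjusted p = 0.31). It did pass with at least 2 gate UMIs and in cells free of markers of other lineages, defined below.

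Promoters of 3 genes are shown. Gzmk defines most of the population, and Nkg7 and Gzmb rose in it. Each is the 250 bases before the gene's start on its own strand, from RefSeq on GRCm38.p6, with capitals marking a match to a T-box motif (TCACACC or its reverse complement GGTGTGA) or to a Runx motif (AACCACA or its reverse complement TGTGGTT), searched on both strands.
Gzmk: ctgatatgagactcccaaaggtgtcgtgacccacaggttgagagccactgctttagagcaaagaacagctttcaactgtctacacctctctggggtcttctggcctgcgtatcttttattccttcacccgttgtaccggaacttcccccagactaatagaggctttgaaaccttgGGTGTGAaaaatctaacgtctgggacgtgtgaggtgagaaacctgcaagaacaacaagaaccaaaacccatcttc
Nkg7: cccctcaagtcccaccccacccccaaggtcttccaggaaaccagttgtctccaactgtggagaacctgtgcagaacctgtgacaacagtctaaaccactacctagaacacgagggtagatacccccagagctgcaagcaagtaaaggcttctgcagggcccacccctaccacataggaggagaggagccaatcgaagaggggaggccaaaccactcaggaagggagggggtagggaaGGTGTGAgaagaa
Gzmb: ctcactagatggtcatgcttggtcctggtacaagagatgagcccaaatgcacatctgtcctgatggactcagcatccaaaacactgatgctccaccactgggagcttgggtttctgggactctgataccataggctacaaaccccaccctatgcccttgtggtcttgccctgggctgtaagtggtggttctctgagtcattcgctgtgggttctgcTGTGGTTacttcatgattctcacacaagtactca
The Gzmk window (chr13:113180966-113181215, reverse strand) held 1 T-box match that began 75 bases before the start, and the Nkg7 window (chr7:43436888-43437137, forward strand) held 1 that began 13 bases before it. The Gzmb window (chr14:56262335-56262584, reverse strand) held 1 Runx match that began 34 bases before the start. No window shown held both motifs, so no matches overlapped. Of 32851 promoters of the same length, 1095 (3.33%) held the T-box motif and 1444 (4.40%) the Runx motif. Every window shown held a match, which was not so for the other windows searched. Those of Eomes and Esm1 and of the risen genes Fasl and Cst7 held neither motif. That of Gzma held 1 Runx match that began 51 bases before the start. These are matches of letters, and binding was not measured.

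**Figure D2:**
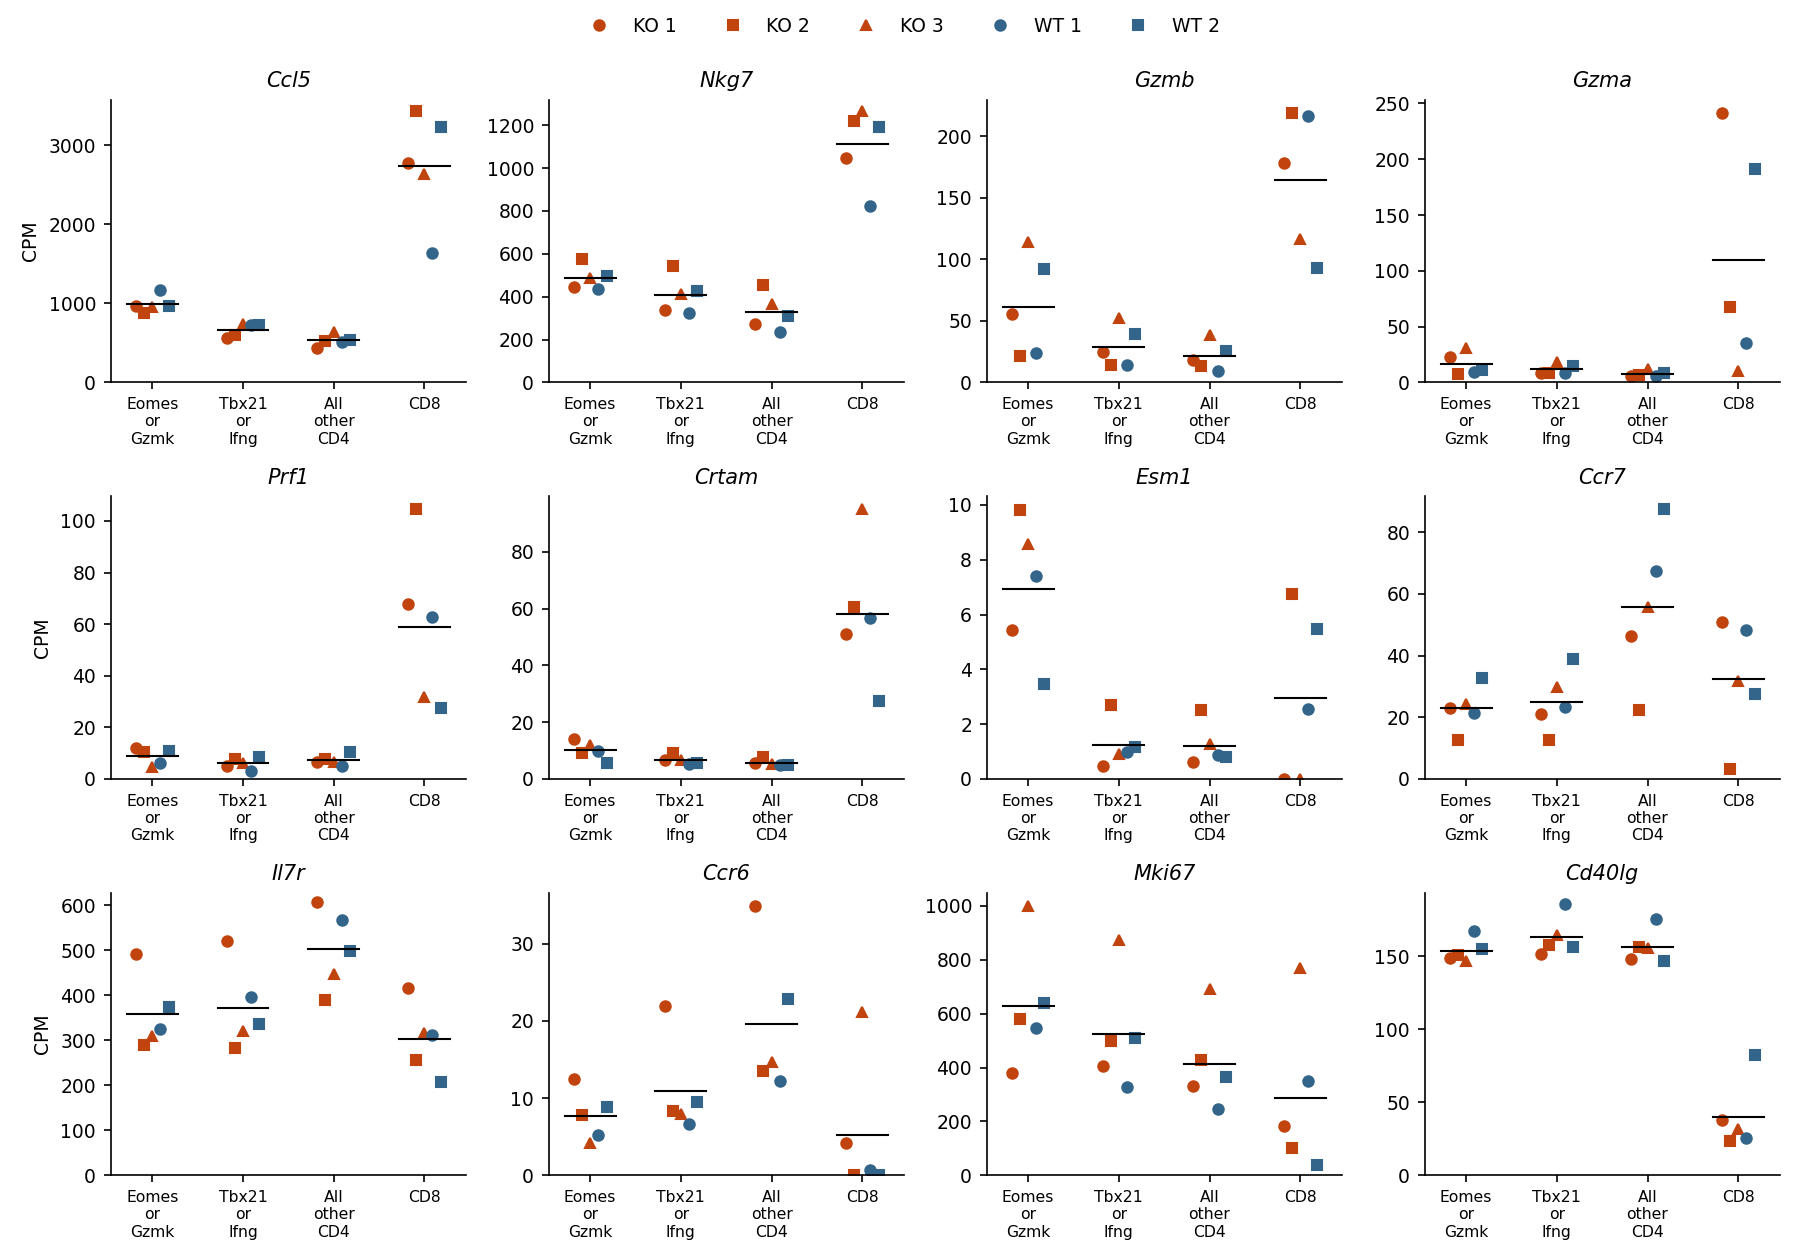
Levels of 12 genes (y axis, CPM) in Eomes or Gzmk cells, in cells with Tbx21 or Ifng but neither Eomes nor Gzmk, in all other conventional CD4 T cells and in CD8 T cells (x axis). Each point is 1 library, with its own symbol and its group's colour, and the line is the mean of the 5 libraries. Ccl5 stands at 881 to 1174 in Eomes or Gzmk cells, above the other CD4 classes and below the CD8 T cells at 1635 to 3430.

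The Th1 programme was only in part higher. Of its 24 genes 8 rose and 3 fell, with a median log2 fold change of 0.23, and 5 rose without KO library 1 or WT library 2. T-bet (Tbx21), the defining Th1 factor, rose by 0.26 on the log2 scale (SE 0.06, edgeR adjusted p = 0.0213) and the Th1 chemokine receptor Cxcr3 by 0.25 (SE 0.06, adjusted p = 0.0161), and neither passed after thinning or without WT library 2, nor Tbx21 without KO library 1 or WT library 1. Runx3, a factor of the cytotoxic lineage, rose by 0.23 (SE 0.04, edgeR adjusted p = 0.00506), likewise not after thinning. Ifng, which encodes interferon gamma, stood at 78.2, 84.5 and 46.8 CPM in the population in KO libraries and 40.4 and 62.2 in WT libraries, against 34.2, 121 and 44.4 in KO libraries and 25.4 and 42.7 in WT libraries in the other cells. It was higher in 4 of 5 libraries and did not pass (log2 fold change 0.35, SE 0.19, edgeR adjusted p = 0.289). Without KO library 2, the exception, Ifng passed at a log2 fold change of 0.63 (edgeR adjusted p = 0.014). The helper-lineage factor Zbtb7b had a log2 fold change of -0.18 (SE 0.05, edgeR adjusted p = 0.0655).

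Genes of naive and central memory cells fell as a group. Of 18 such genes 15 fell and 0 rose, with a median log2 fold change of -0.61, and 11 of 15 fell after thinning. Ccr7, the receptor that guides T cells into lymph nodes, stood at 22.9, 12.7 and 24.4 CPM in the population in KO libraries and 21.4 and 32.8 in WT libraries, against 46.2, 22.2 and 55.6 in KO libraries and 67.5 and 87.5 in WT libraries in the other cells. It was lower in the population in 5 of 5 libraries, with a log2 fold change of -1.32 (SE 0.11, edgeR adjusted p = 1.18e-04). Igfbp4, the survival cytokine receptor Il7r and the stem-like factor Tcf7 had log2 fold changes of -1.67, -0.53 and -0.41 (edgeR adjusted p = 1.18e-04, 7.32e-04 and 0.00185), and all of these naive-type genes passed under every alternative run.

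Among lists of other helper lineages, of 8 tested Th17 genes 6 fell and 0 rose, at a median log2 fold change of -1.15. The Th17 chemokine receptor Ccr6 stood at 12.4, 7.86 and 4.16 CPM in the population in KO libraries and 5.26 and 8.84 in WT libraries, against 34.9, 13.5 and 14.7 in KO libraries and 12.3 and 22.8 in WT libraries in the other cells. It was lower in each library, with a log2 fold change of -1.30 (SE 0.12, edgeR adjusted p = 1.98e-04), and did not pass after thinning. Of 9 tested Th2 genes 6 fell and 0 rose, Il1rl1 among them (log2 fold change -0.67, SE 0.16, edgeR adjusted p = 0.0232), which did not pass without KO library 1 or WT library 2. Of 11 tested follicular helper genes 1 rose (Sh2d1a) and 2 fell (Cd200 and Slamf6), at a median of -0.09. Of 23 genes of type 1 regulatory cells and checkpoints, 3 rose and 3 fell. The inhibitory receptors Pdcd1 (PD-1) and Lag3 did not pass (log2 fold changes 0.12 and 0.15, edgeR adjusted p = 0.414 and 0.703). Il10 stood at 15.1 CPM in KO library 1 and between 0.234 and 0.918 in the other 4 libraries, and did not pass (edgeR adjusted p = 0.176).

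Of 17 tested tissue residency genes 8 rose and 1 fell. The collagen-binding integrin Itga1 rose by 0.52 on the log2 scale (edgeR adjusted p = 0.00498) and the residency factor Zfp683 (Hobit) by 0.30 (adjusted p = 0.0366). Without KO library 3, WT library 1 or WT library 2, 3, 5 and 4 of the 17 rose, and Zfp683 was not among them. Of 17 tested NK-type receptor genes 3 rose (Slamf7, Crtam and the Fc receptor gene Fcgr3) and 0 fell. Slamf7 rose by 0.54 on the log2 scale (edgeR adjusted p = 0.00466). Crtam, a receptor of cytotoxic CD4 cells, rose by 0.79 (edgeR adjusted p = 0.0156) and did not pass without KO library 1, KO library 3 or WT library 1.

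Most cell cycle and interferon genes were higher at full depth. Of 20 cell cycle genes 18 rose and 0 fell, at a median log2 fold change of 0.62. The proliferation marker Mki67 stood at 381, 580 and 1002 CPM in the population in KO libraries and 547 and 639 in WT libraries, against 332, 426 and 690 in KO libraries and 245 and 365 in WT libraries in the other cells. It was higher in 5 of 5 libraries (log2 fold change 0.60, SE 0.10, edgeR adjusted p = 0.00592), and the spindle genes Aspm and Cenpf had log2 fold changes of 0.82 and 0.72 (adjusted p = 1.18e-04 and 1.31e-04). After thinning, 2 of 19 rose at a median of 0.36, and without WT library 2, 11 of 20 rose. Of 20 type I interferon genes 12 rose and 0 fell, at a median of 0.26. The antiviral genes Rsad2 and Isg15 rose by 0.51 and 0.41 on the log2 scale (edgeR adjusted p = 0.00394 and 0.0106), and Isg15 did not pass without WT library 2. After thinning 1 of 18 interferon genes rose, and without WT library 2, 6 of 20. Thinning also cut the population to 545 cells. Gates were applied after thinning, so a member that lost its Eomes and Gzmk UMIs counted among the other cells or dropped out. Of 21671 conventional CD4 T cells gated at full depth, 1120 had a UMI of either gene after thinning. The part of depth and of this exchange between classes in the counts was not tested.

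Markers of other cell types were measured beside these groups. The summed level of 8 macrophage genes was 1257, 1402 and 1680 CPM in the population in KO libraries and 421 and 1461 in WT libraries, against 792, 918 and 1337 in KO libraries and 515 and 1104 in WT libraries in the other cells. None of the 8 was at 0 in either class, and 6 of the 8 rose in the population, 1 of the 8 without WT library 2. Of 5 tested dendritic cell genes H2-Aa and H2-Eb1 rose and 0 fell, at a median of 0.37. Their list summed to 1066, 839 and 688 CPM in the population in KO libraries and 663 and 1015 in WT libraries, against 685, 561 and 533 in KO libraries and 723 and 664 in WT libraries in the other cells. Of 6 B cell genes 0 passed. The summed B cell genes ranged from 234 to 3098 in the population and from 224 to 5570 in the other cells. Cells with a UMI of Cd8b1, Trdc, Zbtb16, Lyz2, C1qa, Cd79a or Tyrobp were then left out of both classes, which left 322, 605 and 252 cells of the population in KO libraries and 810 and 284 in WT libraries. In these cells 11 of 18 cytotoxic, 20 of 20 cell cycle and 11 of 20 interferon genes rose, and 16 of 18 naive genes fell. The count over all genes in this setting, given in the last section, was also larger than that in the full classes. The list counts here are therefore no measure of a change particular to these lists. Of 3 macrophage genes still tested 0 passed. The removal of cells with Lyz2, C1qa or Tyrobp lowered macrophage transcripts in advance, so this count tests nothing. The CD8 chain Cd8b1, which the gate did not use, stood at 4.20 to 11.01 CPM in the population and 3.52 to 7.19 in the other cells. Of 5 tested gamma-delta T cell genes 3 fell and 0 rose, with 1 that fell without either WT library.

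The gate needed 1 UMI, so levels were followed over the number of gate UMIs per cell. Exactly 1 UMI of Eomes and Gzmk was present in 1873 of the 3307 cells and 2 or more in 1434. In KO libraries 1, 2 and 3, cells with 0, 1, 2 and 3 or more gate UMIs had Ccl5 at 442, 975, 847 and 1069 CPM, at 527, 741, 935 and 1230, and at 637, 915, 1117 and 929. In WT library 1 the same steps gave 517, 1076, 1183 and 1287, and in WT library 2 they gave 539, 940, 844 and 1228. The step between 0 and 1 UMI was upward in every library, and later steps went up or down. Ccr7 in cells with 0 and 1 gate UMI was 46.2 and 18.8 CPM in KO library 1 and 67.5 and 20.5 in WT library 1. Cells that only just met the gate thus differed from the cells below it in these genes in the libraries named.

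**Figure D3:**
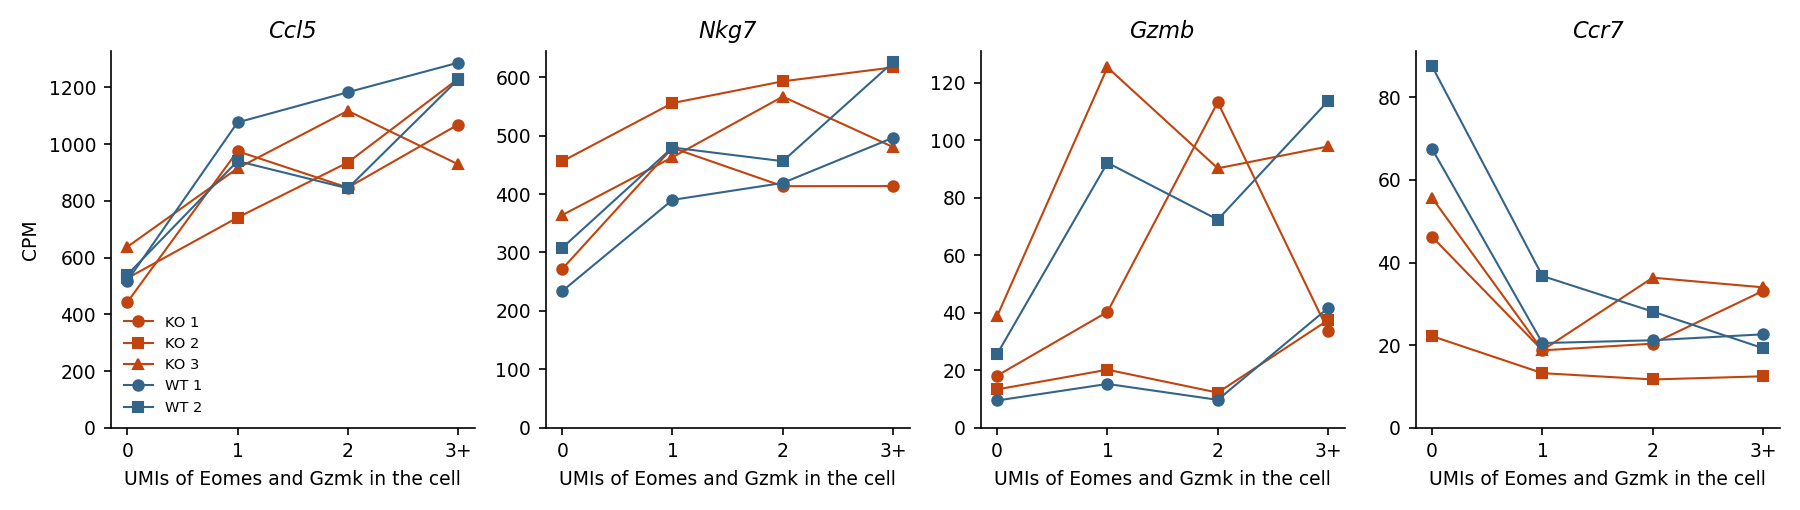
Levels of Ccl5, Nkg7, Gzmb and Ccr7 (y axis, CPM) over the UMIs of Eomes and Gzmk per cell (x axis, 0, 1, 2, 3 or more), with 1 line per library in its group's colour. Ccl5 steps up between 0 and 1 UMI in all 5 libraries, for example 517 with 0 UMIs and 1076 with 1 UMI in WT library 1.

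The largest fold among the 10 named genes that were higher than in the other conventional CD4 T cells belonged to Esm1, which encodes a secreted proteoglycan known from endothelium. It stood at 5.43, 9.83 and 8.59 CPM in the population in KO libraries and 7.40 and 3.47 in WT libraries, against 0.602, 2.50 and 1.28 in KO libraries and 0.867 and 0.788 in WT libraries in the other cells. All 5 values of the population lay above all 5 of the other cells, with a log2 fold change of 2.60 (SE 0.22, edgeR adjusted p = 1.20e-04). On mm10, Esm1 (chromosome 13, 113209659 to 113218098, forward strand) lies within Gzmk (113171608 to 113225908, reverse strand), inside an intron of the longest annotated Gzmk transcript, between the exon that ends at 113180582 and the exon that starts at 113223327. The RefSeq start used for the promoter above belongs to the shorter transcripts, which do not reach Esm1. Esm1 reached 23.5, 23.4 and 47.9 CPM in KO libraries and 17.9 and 32.7 in WT libraries in the cells with both Eomes and Gzmk, and 3.08, 9.10 and 5.98 in KO libraries and 6.30 and 2.39 in WT libraries in those with Gzmk alone. In Eomes-only cells, which had 0 UMIs of Gzmk, it was 4.98, 3.63 and 31.2 in KO libraries and 3.31 and 0 in WT libraries, on 0 to 4 UMIs a library. In CD8 T cells, with Gzmk at 75.2 to 223, it was 0, 6.75 and 0 in KO libraries and 2.57 and 5.47 in WT libraries. Use of strand in the counting is not given in the sources used here, so reads of the 2 genes may not be told apart and Esm1 is uncertain. The other 5 genes tested within 500 kb that lie outside Gzmk, apart from Gzma, did not pass (Slc38a9, Plpp1, Skiv2l2, Dhx29 and Snx18, log2 fold changes of -0.07 to 0.11).

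Ifngas1, a long noncoding RNA next to Ifng that is also transcribed in Th1 and NK cells, stood at 32.7, 37.1 and 27.2 CPM in the population in KO libraries and 42.8 and 18.3 in WT libraries, against 11.6, 20.8 and 9.31 in KO libraries and 15.4 and 8.44 in WT libraries in the other cells. It was higher in 5 of 5 libraries (log2 fold change 1.26, SE 0.11, edgeR adjusted p = 1.31e-04) and did not pass after thinning. Rasgef1b, a guanine nucleotide exchange factor gene, stood at 13.3, 17.4 and 14.7 in KO libraries and 23.1 and 14.8 in WT libraries in the population, against 7.13, 7.53 and 7.32 in KO libraries and 8.45 and 4.93 in WT libraries in the other cells. The classes did not overlap (log2 fold change 1.22, SE 0.11, edgeR adjusted p = 1.99e-04). Among the named lower genes were the growth factor receptor Igf1r and the sialyltransferase St8sia6, with log2 fold changes of -1.04 and -1.43 (edgeR adjusted p = 1.18e-04 for each).

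A closer comparison class was the 9323 conventional CD4 T cells that had Tbx21 or Ifng and neither Eomes nor Gzmk, with medians of 9199, 5784.5 and 6569 UMIs per cell in KO libraries and 15677.5 and 6462.5 in WT libraries. Ccl5, Nkg7 and Gzmb were higher in the population than in these cells. Of 11865 genes 202 (1.7%) passed, 93 higher (0.784%) and 109 lower (0.919%), and 16 passed after thinning. Ccl5 stood in these Tbx21 or Ifng cells at 557, 596 and 736 CPM in KO libraries and at 724 and 725 in WT libraries, below the values of the Eomes or Gzmk cells given above in each library (log2 fold change 0.57, SE 0.05, edgeR adjusted p = 2.96e-04). Gzmb rose by 0.97 on the log2 scale (SE 0.09, edgeR adjusted p = 2.23e-04) and Nkg7 by 0.27 (SE 0.05, adjusted p = 0.0104). Sh2d1a, the adaptor of SLAM-family receptors, and the costimulatory receptor Cd27 rose by 0.44 and 0.36 (edgeR adjusted p = 4.84e-04 and 0.0207). After thinning Ccl5 and Nkg7 still passed, and Gzmb did not, and Cd27 did not pass without KO library 2, KO library 3 or WT library 2.

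Csf2 and Ccl1 were lower against the same cells, which were chosen for a UMI of Tbx21 or Ifng while the population was not. The part of that choice in these differences was not tested. Csf2, which encodes the myeloid growth factor GM-CSF, stood at 1.40, 1.44 and 0 CPM in the Eomes or Gzmk cells of KO libraries and 1.29 and 0.947 of WT libraries, against 15.6, 6.28 and 6.80 in the Tbx21 or Ifng cells of KO libraries and 3.99 and 2.45 of WT libraries. The classes did not overlap (log2 fold change -2.36, SE 0.31, edgeR adjusted p = 0.00263). Ccl1, a chemokine for Ccr8-bearing T cells, stood at 13.0, 66.3 and 43.0 in KO libraries and 15.0 and 22.4 in WT libraries in the population, against 149, 150 and 100 in KO libraries and 52.6 and 79.5 in WT libraries in the Tbx21 or Ifng cells. It was lower in 5 of 5 libraries (log2 fold change -1.79, SE 0.21, edgeR adjusted p = 0.00114). Bhlhe40, a factor known to promote GM-CSF production, and Il18r1, a chain of the IL-18 receptor, fell by 0.39 and 0.36 on the log2 scale (edgeR adjusted p = 0.00248 and 0.0109), and Il18r1 did not pass without WT library 2.

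Against these cells 3 of 18 cytotoxic genes rose and 1 fell, and 2 of 22 Th1 genes rose and 3 fell. Of 18 naive genes 1 rose and 1 fell, at a median log2 fold change of -0.06. Without WT library 2, 1 Th1 gene fell. Of 20 cell cycle genes 7 rose and 0 fell, 11 rose without KO library 1, and 0 of 14 passed after thinning. None of 8 macrophage genes passed by edgeR, with summed levels in the Tbx21 or Ifng cells of 964, 1056 and 1667 CPM in KO libraries and 543 and 1194 in WT libraries. Leaving out WT library 2 gave 102 genes in place of 202.

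CD8 T cells caught in the same sort, with Cd8a and Cd3e and without Cd4, Foxp3, Ncr1 and Klrb1c, numbered 23, 53 and 17 in KO libraries and 100 and 34 in WT libraries. Of 17 tested cytotoxic genes 9 fell in the Eomes or Gzmk cells against these CD8 T cells, and Cd40lg, Maf, Tnfsf11 and Zbtb7b rose. Of 9907 genes 457 (4.61%) passed, 263 higher (2.65%) and 194 lower (1.96%). Leaving out WT library 1 gave 274, DESeq2 gave 266 and thinning gave 36. Cd8b1 stood at 4.20, 11.01 and 6.10 CPM in the population in KO libraries and 4.75 and 5.68 in WT libraries, against 937, 762 and 824 in KO libraries and 890 and 832 in WT libraries in CD8 T cells.

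Perforin showed the gap within the granule genes. Prf1 in the population, at the levels given above, compared with 67.8, 105 and 31.7 CPM in CD8 T cells of KO libraries and 63.0 and 27.4 of WT libraries. The classes did not overlap, with a log2 fold change of -2.93 (SE 0.29, edgeR adjusted p = 1.81e-08). Ccl5, Nkg7 and Gzma had log2 fold changes of -1.46, -1.19 and -2.77 (edgeR adjusted p = 9.70e-10, 2.65e-11 and 4.02e-07), and Gzmb had -2.10 (adjusted p = 1.37e-05, 0.146 by DESeq2). None of the 17 cytotoxic genes rose by edgeR. Of 15 tested NK-type receptor genes 9 fell and 2 rose, with Cd160 at -3.95, Klrd1 (CD94) at -2.63 and Crtam at -2.52 (edgeR adjusted p = 4.74e-12, 1.39e-10 and 7.45e-08). The Runx3 log2 fold change was -0.63 (edgeR adjusted p = 3.70e-04) and that of the tissue-homing receptor Cxcr6 -0.36 (adjusted p = 0.0274), which passed only when KO library 2 or no library was left out.

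Of 10 CD4 and CD8 lineage genes 4 rose (Zbtb7b, Cd40lg, Gata3 and Runx1) and 5 fell (Runx3, Cd8b1, Satb1, Crtam and Cd160), at a median of -0.43, and of 9 tested follicular helper genes 5 rose and 0 fell. Without WT library 1, 2 lineage and 2 follicular helper genes rose, and without KO library 1, 3 follicular helper genes. Cd40lg, the ligand by which helper cells license B cells and dendritic cells, stood at 149, 151 and 147 CPM in the population in KO libraries and 167 and 155 in WT libraries, against 38.1, 23.6 and 31.7 in KO libraries and 25.7 and 82.1 in WT libraries in CD8 T cells. Every library of the population was above every library of the CD8 T cells (log2 fold change 2.21, SE 0.20, edgeR adjusted p = 4.65e-09). The factor Maf and the cytokine Tnfsf11 (RANKL) had log2 fold changes of 2.02 and 2.69 (edgeR adjusted p = 7.92e-08 and 1.50e-07). Zbtb7b (ThPOK), the factor of helper commitment, had 1.33 (SE 0.29, edgeR adjusted p = 0.00425), 0.0517 by DESeq2, and did not pass without WT library 1. Of 20 cell cycle genes 12 rose and 0 fell, and 7 of 8 macrophage genes rose, 4 without KO library 3 or WT library 1.

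Within the population, the 172 cells with Eomes and no Gzmk were set against the 2888 with Gzmk and no Eomes. In cells with Eomes alone 5 of 16 naive and memory genes rose, and 11 of 20 cell cycle and 5 of 15 residency genes fell. They numbered 18, 65 and 12 in KO libraries and 65 and 12 in WT libraries, so single-library values below rest on few cells. Of 9722 genes 222 (2.28%) passed, 87 higher (0.895%) and 135 lower (1.39%). In the only 2 libraries with at least 20 cells in both classes, KO library 2 and WT library 1, 112 passed. Leaving out WT library 1 gave 68, leaving out KO library 2 gave 123, DESeq2 gave 140, and thinning, which left few such cells, gave 1.

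Crtam stood at 120, 72.6 and 0 CPM in Eomes-only cells of KO libraries and 25.6 and 62.0 of WT libraries, against 5.95, 4.01 and 8.97 in Gzmk-only cells of KO libraries and 5.15 and 3.75 of WT libraries. It was higher in 4 of 5 libraries (log2 fold change 3.30, SE 0.44, edgeR adjusted p = 2.28e-04). Myb, a factor of stem-like memory cells, stood at 84.7, 41.8 and 197 in KO libraries and 48.8 and 17.7 in WT libraries in Eomes-only cells, against 5.54, 9.10 and 13.8 in KO libraries and 10.9 and 10.9 in WT libraries in Gzmk-only cells. The classes did not overlap (log2 fold change 2.71, SE 0.33, edgeR adjusted p = 8.57e-05). Bach2, a factor that restrains effector differentiation, stood at 344, 323 and 363 in KO libraries and 361 and 346 in WT libraries in Eomes-only cells, against 191, 168 and 205 in KO libraries and 194 and 228 in WT libraries in Gzmk-only cells, again without overlap (log2 fold change 0.86, SE 0.11, edgeR adjusted p = 1.22e-04). It did not pass after thinning. In all, 5 of 16 naive genes rose and 0 fell, 2 without WT library 1.

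Of 18 tested genes of type 1 regulatory cells and checkpoints 3 rose and 1 fell in Eomes-only cells, and of 13 tested NK-type receptor genes 3 rose and 1 fell. Without WT library 1, 1 gene of each list rose, and without KO library 1, 1 checkpoint gene. Tox rose by 0.77, Pdcd1 by 0.89, Cd160 by 1.81 and Klrd1 by 1.13 on the log2 scale (edgeR adjusted p = 0.00943, 0.0327, 0.0125 and 0.0224), and each lost its call without at least 1 library, WT library 1 for Tox, Cd160 and Klrd1, KO library 2 for Klrd1, KO library 3 for Cd160, and KO library 1, KO library 3 or WT library 2 for Pdcd1. Penk, the precursor of enkephalins, stood at 204, 87.1 and 10.4 CPM in KO libraries and 2.48 and 8.86 in WT libraries in Eomes-only cells, against 2.26, 17.1 and 0.299 in KO libraries and 0.368 and 2.05 in WT libraries in Gzmk-only cells. It was higher in 5 of 5 libraries, most of it in KO libraries 1 and 2 (log2 fold change 3.76, SE 0.59, edgeR adjusted p = 9.00e-04). Ccl5 and Nkg7 did not pass (log2 fold changes 0.16 and 0.15, edgeR adjusted p = 0.739 and 0.686). After thinning Ccl5 was the gene of these 2 that passed.

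Fgl2, a secreted immunosuppressive fibrinogen-like protein, was lower in Eomes-only cells, at 15.0, 21.8 and 41.5 CPM in KO libraries and 19.0 and 26.6 in WT libraries, against 80.0, 79.3 and 90.6 in KO libraries and 128 and 92.0 in WT libraries in Gzmk-only cells. The classes did not overlap (log2 fold change -2.23, SE 0.23, edgeR adjusted p = 8.43e-06). Mki67 stood at 110, 343 and 696 in KO libraries and 201 and 354 in WT libraries in Eomes-only cells, against 387, 597 and 1027 in KO libraries and 562 and 639 in WT libraries in Gzmk-only cells, lower in 5 of 5 libraries (log2 fold change -1.06, SE 0.13, edgeR adjusted p = 8.57e-05). Of 20 cell cycle genes 11 fell and 0 rose, and 4 fell without WT library 1. When the cells with both genes were added to the Eomes-only side, 1 of 20 fell. Cxcr6, Itga1 and Zfp683 fell by 0.64, 1.56 and 1.39 on the log2 scale (edgeR adjusted p = 0.00295, 4.53e-04 and 0.00926), and of 15 residency genes 5 fell and 2 rose. Without WT library 1, 2 residency genes fell, and Cxcr6 and Zfp683 did not pass. Of 8 macrophage genes 5 fell (3, 2 and 1 without KO library 2, KO library 3 and WT library 1), with summed levels of 79.7, 612 and 260 CPM in KO libraries and 119 and 1790 in WT libraries in Eomes-only cells, against 1358, 1502 and 1695 in KO libraries and 464 and 1445 in WT libraries in Gzmk-only cells. Of 4 tested B cell genes Cd79a and Igkc fell and 0 rose, at a median of -3.58. The B cell list summed to 244, 94.4 and 208 CPM in KO libraries and 190 and 133 in WT libraries in Eomes-only cells, with 2 to 4 of its 6 genes at 0, against 2607, 785 and 240 in KO libraries and 3630 and 241 in WT libraries in Gzmk-only cells, with at most 1 at 0. The part of both marker lists in these results was not tested.

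**Figure D4:**
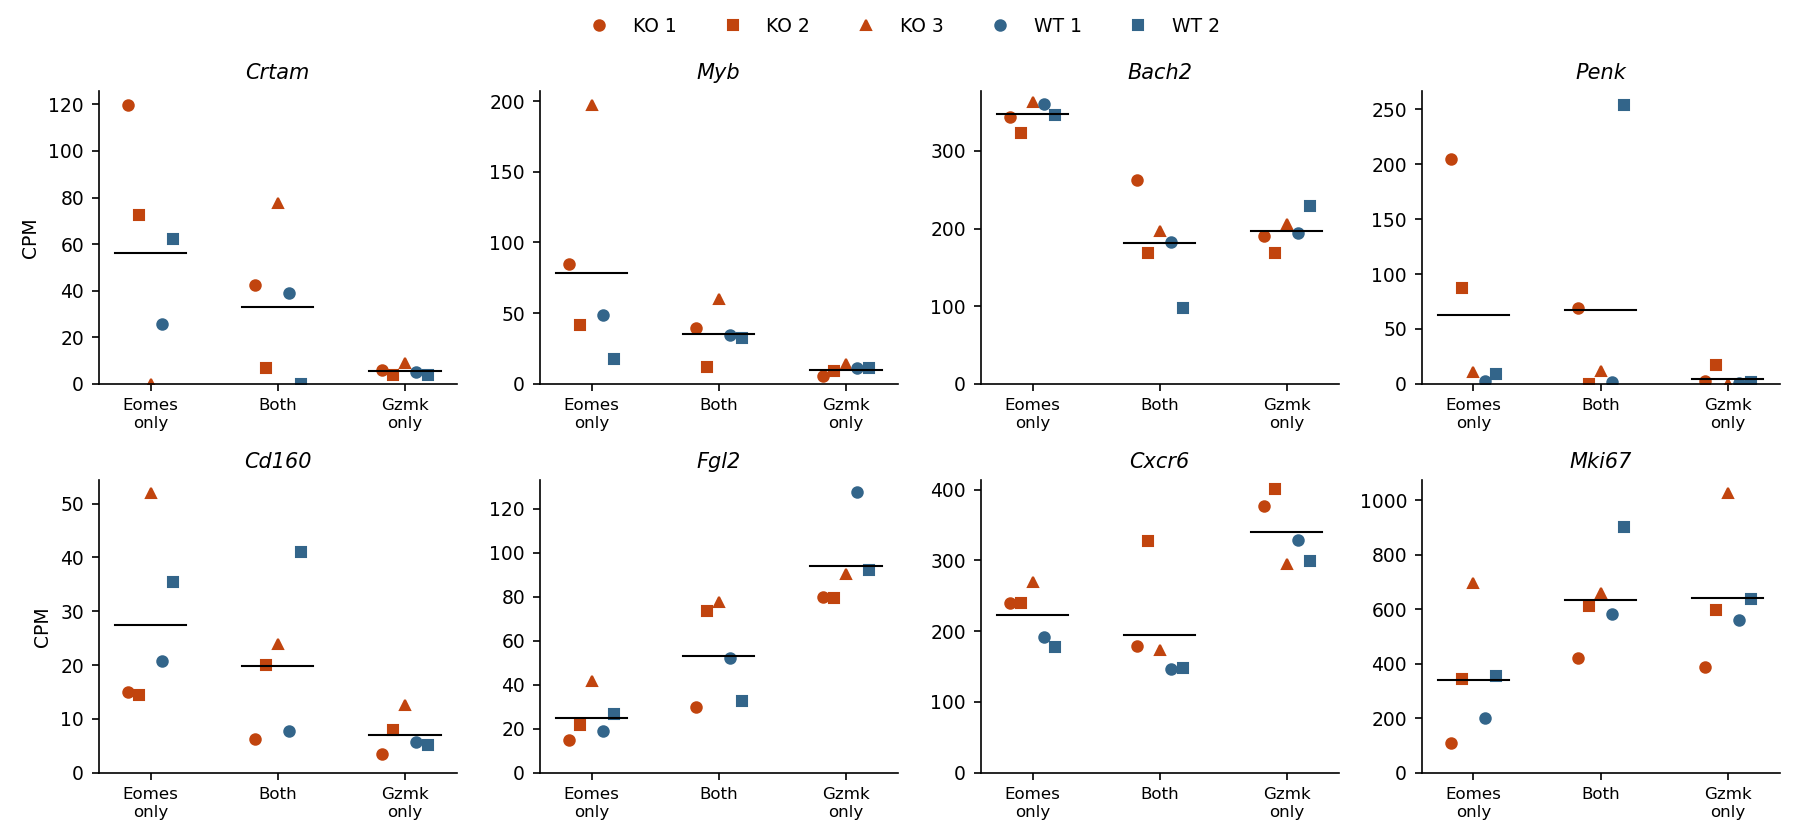
Levels of 8 genes (y axis, CPM) in cells with Eomes only, with both genes and with Gzmk only (x axis), with 1 point per library and a line at the mean of 5 libraries. Myb, Bach2 and Fgl2 separate Eomes-only from Gzmk-only cells without overlap between libraries, whereas Crtam is at 0 in the Eomes-only cells of KO library 3.

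The genotypes were then compared within the population, KO over WT. Of 11367 genes 0 (0%) passed in edgeR, 374 (3.29%) had an unadjusted p under 0.05, of which 254 (2.23%) were higher and 120 (1.06%) lower in KO libraries, and DESeq2 called 13. Libraries of the groups did not overlap in 1810 genes (15.9%), 1232 higher (10.8%) and 578 lower (5.08%). Lilr4b, which encodes a leukocyte immunoglobulin-like receptor, stood at 57.9, 63.7 and 44.6 CPM in KO libraries, against 25.6 and 23.0 in WT libraries (log2 fold change 1.15, SE 0.18, edgeR adjusted p = 0.719). Ccl4, an inflammatory chemokine of T cells and NK cells, stood at 26.3, 31.1 and 34.6 in KO libraries, against 5.73 and 12.3 in WT libraries (log2 fold change 1.93, SE 0.31, edgeR adjusted p = 0.719). Gas7 stood at 48.5, 48.0 and 47.7 in KO libraries, against 26.4 and 30.0 in WT libraries (log2 fold change 0.75, SE 0.12, edgeR adjusted p = 0.719). These 3 genes did not overlap between the groups, failed the correction in edgeR and passed in DESeq2 (adjusted p = 0.00134, 6.03e-04 and 0.0408). With lower values in KO libraries, Wdfy4, known for cross-presentation by dendritic cells, stood at 17.9, 25.8 and 17.5 CPM in KO libraries, against 35.7 and 40.1 in WT libraries (log2 fold change -0.90, SE 0.19, edgeR adjusted p = 0.815). Chd3, a chromatin remodeller, stood at 280, 318 and 320 in KO libraries, against 391 and 424 in WT libraries (log2 fold change -0.44, SE 0.11, edgeR adjusted p = 1).

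No list had a member that passed between the genotypes in edgeR. The 24 Th1 genes had a median log2 fold change of 0.28, with 21 positive. The 18 cytotoxic genes had a median of 0.20, the 18 naive genes -0.14, the 20 interferon genes -0.25 with 17 negative, and the 20 cell cycle genes -0.03, beside 0.00 over all genes. All 8 tested macrophage genes were positive, at a median of 0.60, as were all 8 Th17 genes, at 0.66. In the other conventional CD4 T cells the Th1 median was 0.38, with 21 of 24 positive, and the cytotoxic median 0.30. There the naive median was -0.69, the interferon median -0.14 with 16 of 20 negative, and the cell cycle median 0.46. Of 8 macrophage genes 7 were positive there, at a median of 0.34, and of 11 Th17 genes 10, at 0.67. The other conventional CD4 T cells gave 0 of 13472 genes (0%) in edgeR and 739 (5.49%) with an unadjusted p under 0.05, 338 higher (2.51%) and 401 lower (2.98%), and DESeq2 called 73. There the groups did not overlap in 2731 genes (20.3%), 1731 higher (12.8%) and 1000 lower (7.42%).

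The genotype difference itself was compared between the population and the other conventional CD4 T cells, as an interaction with library as a term. Of 13681 genes 49 (0.358%) passed, 25 with the more positive KO over WT difference in the population (0.183%) and 24 with the more negative one (0.175%). Of 18 naive genes 6 passed and had the more positive difference in the population, at a median of 0.49. In the other cells their median log2 KO over WT was -0.69, and in the population -0.14. Markers of other cells moved the same way without passing, with all 8 macrophage genes positive at a median interaction of 0.35 and all 6 B cell genes positive at 0.41, and their part was not tested. Satb1, a chromatin organiser of naive T cells, stood at 113, 146 and 102 CPM in the population in KO libraries, against 60.5 and 120 in WT libraries. In the other cells it stood at 213, 193 and 182 in KO libraries, against 256 and 352 in WT libraries. The groups overlapped in the population and not in the other cells, and the interaction was 1.17 (SE 0.15, edgeR adjusted p = 0.0150).

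Of 20 cell cycle genes 3 passed with the more negative difference in the population, at a median interaction of -0.46. In the other cells all 20 had a positive log2 KO over WT, at a median of 0.46. Tpx2, a spindle assembly factor, stood at 48.1, 77.5 and 133 CPM in the population in KO libraries, against 81.3 and 92.8 in WT libraries. In the other cells it stood at 42.5, 59.0 and 101 in KO libraries, against 35.1 and 46.8 in WT libraries, with an interaction of -0.78 (SE 0.10, edgeR adjusted p = 0.0150). The interaction for Il1rl1 was 1.04 (SE 0.19, edgeR adjusted p = 0.0404, 0.0513 by DESeq2), with 62.0, 36.8 and 25.1 CPM in the other cells of KO libraries, against 10.8 and 10.1 of WT libraries. These calls were not stable. After thinning 2 genes passed, 0 of them naive or cell cycle genes, with list medians of -0.06 and 0.21. Without KO library 2, KO library 3 or WT library 1 the count was 1, 1 and 0, and without KO library 1 or WT library 2 it was 99 and 283, the 283 with 11 naive and 17 cell cycle genes.

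**Figure D5:**
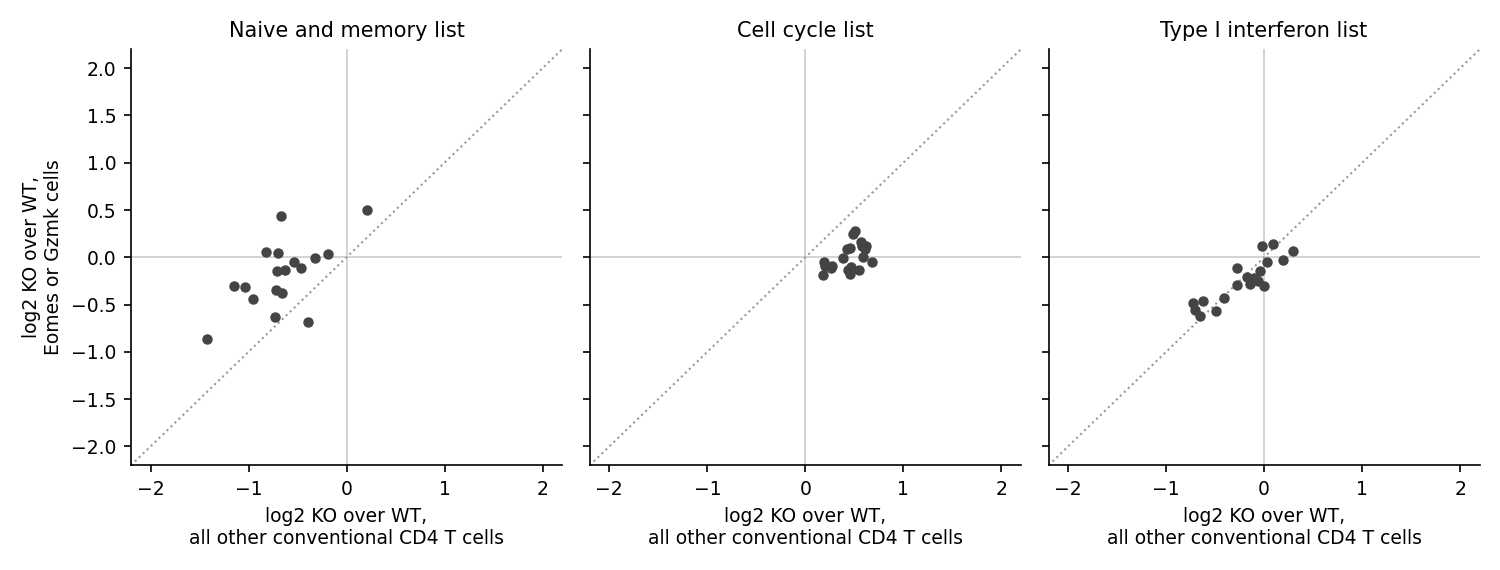
Log2 KO over WT in the Eomes or Gzmk cells (y axis) against that in the other conventional CD4 T cells (x axis) for the genes of the naive and memory, cell cycle and type I interferon lists. Each point is 1 gene and the dotted line marks equal differences. The naive genes lie above the line on balance (medians -0.14 and -0.69) and the cell cycle genes below it (medians -0.03 and 0.46).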

How the data were processed

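CD4 T cells sorted from injured mouse kidneys were profiled as 3 KO and 2 WT libraries with the 10x GEM-X 3′ assay. The authors deposited raw UMI counts per gene and barcode, which the file headers tie to Cell Ranger 8.0.0, and mm10 and Seurat 5.1.0 are named in the submitters' processing notes. The files held 31053 genes and 40778 barcodes, with 31104939 to 152275841 UMIs per library. Use of strand in the counting is not given in the sources used here.

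Cells were kept with at least 500 genes and under 10% mitochondrial UMIs and gated as described above. Within each library the UMI counts of a class were added up and tested with edgeR 4.0.16 (R 4.3.3, TMM factors, filterByExpr, quasi-likelihood test, Benjamini-Hochberg threshold 0.05). The 8 gate genes were left out of calls. The model for class comparisons and for the interaction held a term for library, and that for KO over WT did not. Levels are CPM of the class sum. Shares were compared with an exact permutation test (scipy 1.17.1) in cells thinned to 2000 UMIs. The fitting code was run on simulated counts of a fixed spread, which does not test the spread between the real libraries. Scrublet (scanpy 1.11.5) called 2 of 38417 cells as doublets and so did not work here, and the 5% of cells per library with the highest scores were left out as an alternative. DESeq2 1.42.0, RLE factors, no filter on low counts, other cell filters, thinning, stricter gates, a replicate block and leaving out each library were the other alternatives.

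For each comparison, at most 10 genes higher and 10 lower were named, those of smallest p among genes past the threshold and with 1 direction in all libraries. Between genotypes, up to 6 per direction whose groups did not overlap were named without passing. Antigen receptor, ribosomal, mitochondrial, sex-linked and unnamed genes were set aside. Genes of the lists, markers of other cells, and Esm1 and its neighbours were named in addition, some after their values were seen. The members and lists were chosen with earlier results of these data known. Gene positions are from the mm10 annotation and promoters from RefSeq on GRCm38.p6. Some genes of the lists are counted but not reported by name here.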

Additional observations from a re-analysis of the deposited data

Results flagged for a closer look

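For 20 named genes the KO over WT difference in the Eomes or Gzmk cells differed from that in the other conventional CD4 T cells of the same libraries, by edgeR's interaction test at adjusted p between 0.0150 and 0.0278. The values that follow are the log2 KO over WT difference in the Eomes or Gzmk cells minus that in the other cells. It was positive for Satb1 at 1.17, Cers6 at 0.90, Nsg2 at 0.73, Lef1 at 0.72, Cmah at 0.63, Bach2 at 0.59, Znrf3 at 0.58, Foxp1 at 0.50, Klf2 at 0.50 and Klf3 at 0.43. Lef1, Foxp1, Bach2, Klf2 and Satb1 are transcriptional regulators known from naive T cells. It was negative for Hist1h2ap at -1.29, Serpina3f at -1.004, Cdca3 at -0.86, Tpx2 at -0.78, Ncapg2 at -0.74, Nusap1 at -0.73, Kif4 at -0.73, Bub1b at -0.71, Serpina3g at -0.58 and Socs2 at -0.55. Tpx2, Nusap1, Kif4, Bub1b, Cdca3 and Ncapg2 act in chromosome segregation or mitosis, and Hist1h2ap encodes a histone. None of the 20 passed in cells thinned to 2000 UMIs, or without KO library 2, KO library 3 or WT library 1.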

How the results depend on the processing

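The Eomes or Gzmk cells against the other conventional CD4 T cells gave 1276 genes, with 113 after thinning, 2034 in cells free of other lineages' markers and 508 to 1074 when 1 library was left out (809 without KO library 3, 766 without WT library 1, 508 without WT library 2). Against Tbx21 or Ifng cells 202 became 735 without a filter on low counts, 16 after thinning, 493 in marker-free cells and 102 to 195 with 1 library left out. Against CD8 T cells 457 became 266 in DESeq2, 698 unfiltered, 36 after thinning and 274 to 498 with 1 library left out. Eomes-only against Gzmk-only cells gave 222, and 140 in DESeq2, 452 unfiltered, 1 after thinning, 112 in libraries with at least 20 cells of both kinds (chosen after seeing the data) and 68 to 269 with 1 library left out.

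Between genotypes, the count of 0 in the Eomes or Gzmk cells became 13 in DESeq2, 289 unfiltered, 1 in marker-free cells and 0 to 5 with 1 library left out, the 5 without WT library 2. The count of 0 in the other cells became 73 in DESeq2, 364 unfiltered and 1 after thinning, and stayed at 0 whichever library was left out. The interaction count of 49 became 468 unfiltered, 2 after thinning, 28 without the highest doublet scores, 12 in marker-free cells and 0 to 283 with 1 library left out. The labels number the libraries within each group and tie no numbers together. With a replicate block the genotype counts were 0 in the Eomes or Gzmk cells and 1 in the other cells, and for the interaction no separate block could be added to the library term. The difference in share of 1.22 percentage points was -0.0800 with at least 2 gate UMIs and 0.709 to 1.73 with 1 library left out.

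Over 168 combinations of gene and comparison, 2310 values were computed, of which 2025 kept direction and side of the threshold, 238 lost the call, 34 gained one and 13 changed sign. Thinning changed the sign of Gzma (-0.13) and Zbtb7b (0.0043) against the other cells, of Camk1d (0.0780) and Lars2 (0.0046) against Tbx21 or Ifng cells, and of the interactions of Znrf3 (-0.26), Nsg2 (-0.97), Klf2 (-0.37), Tpx2 (0.68), Cdca3 (0.86), Bub1b (0.46), Ncapg2 (0.57) and Kif4 (0.68). Cxcr6 against the other cells was -0.0023 with at least 2 gate UMIs. The causes were not tested, except that thinning and leaving out a library test fewer reads or samples by construction. Thinning before gating also put members that lost their gate UMIs among the other conventional CD4 T cells or out of both classes.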
